A study of Mus musculus with 3 samples.

Results

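Conventional dendritic cells (cDC) made up 219 of the 33284 cells kept from droplet single-cell RNA sequencing of mouse duodenal immune cells. They were chosen by raw UMIs (unique molecular identifiers, 1 for each captured RNA molecule): at least 1 of Flt3 and at least 10 of H2-Ab1, 0 of Cd3e, Cd79a and Siglech, and fewer than 5 over C1qa, C1qb and C1qc. Flt3 encodes the growth factor receptor on which dendritic cells depend, and H2-Ab1 encodes a chain of MHC class II. The zero limits set aside T cells, B cells and plasmacytoid dendritic cells, and the complement limit set aside C1q macrophages.

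Conventional dendritic cells take up material in the gut wall, carry it to lymph nodes and present it to T cells. The cDC1 lineage depends on the transcription factors IRF8 and BATF3 and is known for presenting engulfed antigen to CD8 T cells, while cDC2 express SIRPα and C-type lectins and mainly prime CD4 T cells. Either lineage can mature, gain the lymph node homing receptor CCR7 and leave the tissue. In the small intestine most of these cells carry the integrin CD103, encoded by Itgae, and many cDC2 also carry CD11b, encoded by Itgam.

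The tested mice had received recombinant mouse alpha-synuclein preformed fibrils (PFF, aggregates of the protein that accumulates in Parkinson disease) in the wall of the duodenum, and the control mice saline. All were C57B6/J and, by the series title, male, and tissue was taken on day 30. Neither their ages nor the number of mice in a library is stated by the labels. There were 3 libraries: PFF 1 and saline 1, which the labels place in batch 1, and saline 2 in batch 2. The digest was divided between a CD45 sort and CD11b beads before the fractions were rejoined. Both saline files held the same 3 wells, with 0 differing counts over 1509, 3648 and 8732 barcodes. These shared wells were counted as 1 set and given as values beside the libraries. The unshared well of each file stands for saline 1 and saline 2.

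PFF 1 held 59 of the cells, saline 1 held 17, saline 2 held 61 and the shared wells held 19, 30 and 33. The cells were deep: the median was 17716 UMIs and 4101 genes per cell, against 6891.5 UMIs over all kept cells. By library the median was 24834 UMIs in PFF 1, 7875 in saline 1, 26284 in saline 2 and 11240 in the shared wells. The summed counts tested below came to 1539957 UMIs for PFF 1, 157304 for saline 1 and 1676989 for saline 2. Saline 1 was thus the thinnest library, and a gene at 0 there carries little weight. Libraries had between 1 and 119 barcodes in common by pair of wells, but no cDC barcode occurred in more than 1 well.

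Markers that the rule did not use matched the label. Zbtb46, a transcription factor restricted among myeloid cells to conventional dendritic cells, had 196 CPM (a gene's UMIs scaled to the same fixed total in every group of cells) and was read in 79.5% of the cells. It was read in 1.11% of 26864 T cells at 1.70 CPM, in 2.70% of 296 plasmacytoid dendritic cells and in 3.11% of 225 C1q macrophages, at a median of 6847 UMIs per T cell. Itgax, which encodes CD11c, was read in 208 of the 219 cells at 360 CPM and in 27.1% of T cells at 60.3 CPM. The MHC class II invariant chain Cd74 stood at 18279 CPM, against 42.0 CPM in T cells. Of lists for other cell types, 9 of 10 macrophage markers were read at a sum of 223 CPM (Mrc1 at 0) and 5 of 6 monocyte markers at 1061 CPM (Vcan at 0). All 9 epithelial markers were read, at 613 CPM, 2 of 3 neutrophil markers at 22.1 CPM (S100a8 at 0) and 1 of 3 stromal markers, Pecam1, at 222 CPM (Col1a1 and Col3a1 at 0). Of the plasmacytoid dendritic cell markers 6 of 7 were read at 534 CPM (Siglech at 0 by the rule). There 192 of the 219 cells had 2 or more UMIs. All 10 T cell markers were read at 133 CPM, with 2 or more UMIs in 118 cells. The B cell list had 6 of 6 at 128 CPM and the plasma cell list 3 of 3 at 39.6 CPM. The mast cell list had 3 of 4 at 115 CPM and the innate lymphoid list 3 of 4 at 25.5 CPM. The part of other cells' RNA in these sums was not tested.

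The Flt3 limit had cells on both sides, given with their Zbtb46. Just inside, 35 cells had exactly 1 Flt3 UMI, and 45.7% of them carried Zbtb46 (147 CPM). Of the 184 cells with 2 or more, 85.9% carried it (200.4 CPM). Just outside, 78 cells met every other limit without Flt3, and 16.7% of them carried Zbtb46 (26.2 CPM). At the H2-Ab1 limit, 8 members had 10 to 19 UMIs and 6 cells outside had 1 to 9.

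Further gates divided the members. A cell was called mature-like with 3 or more UMIs over Ccr7, Fscn1 and Ccl22. Otherwise it was cDC1-like with 2 or more UMIs over Xcr1 and Clec9a and more of these than of Cd209a, Clec10a and Sirpa together, and cDC2-like in the reverse case. This gave 22 cDC1-like, 171 cDC2-like and 15 mature-like cells, and 11 cells met no gate. Few cells carried both sets of gate genes. Of the 171 cDC2-like cells 165 had no UMI of the cDC1 pair, and 16 of the 22 cDC1-like cells had none of the cDC2 trio. Over all members 6 had 2 or more UMIs of both the pair and the trio. The gates compare these same genes, so the counts describe the gates and are not separate evidence of lineage. The gate for mature cells was less sharp, since 14 cells had a sum of 1 or 2 and 2 cells had 3 or 4.

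The share of cDC varied more between saline wells than between PFF 1 and saline 1. They were 0.481% of kept cells in PFF 1 (exact binomial 95% interval 0.366 to 0.620), against 0.311% (0.182 to 0.498) for saline 1 and 1.41% (1.08 to 1.81) for saline 2. The shared wells had 1.91%, 1.73% and 0.388%. PFF 1 therefore lay inside the saline range, near the low wells. With every cell thinned to 2000 UMIs the shares were 0.257% in PFF 1, 0.164% in saline 1, 0.537% in saline 2 and 0.422% in the shared wells. Barcodes above the 15% mitochondrial limit were 20.1% of PFF 1, 3.04% of saline 1 and 22.7% of saline 2, and the shares also hold whatever mix of sorted and bead-enriched cells was loaded. The part of these in the shares was not tested, and intervals cover counting error only.

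At full depth the makeup of the population by these gates was much alike in all libraries. cDC2-like cells were 78.0% of the cDC in PFF 1 (65.3 to 87.7), 76.5% in saline 1, 77.0% in saline 2 and 79.3% in the shared wells. cDC1-like cells were 10.2% in PFF 1 (3.82 to 20.8), 11.8% in saline 1, 11.5% in saline 2 and 8.54% in the shared wells. The mature-like share was 6.78% in PFF 1, 5.88% in saline 1, 8.20% in saline 2 and 6.10% in the shared wells. The intervals are wide, because these shares rest on 4 mature-like and 6 cDC1-like cells in PFF 1. With members thinned to 2000 UMIs, cDC2-like cells were 25.4% in PFF 1, 18.8% in saline 1, 21.3% in saline 2 and 37.8% in the shared wells. Mature-like cells were then 0%, 6.25%, 4.92% and 3.66% in the same order.

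**Figure D1:**
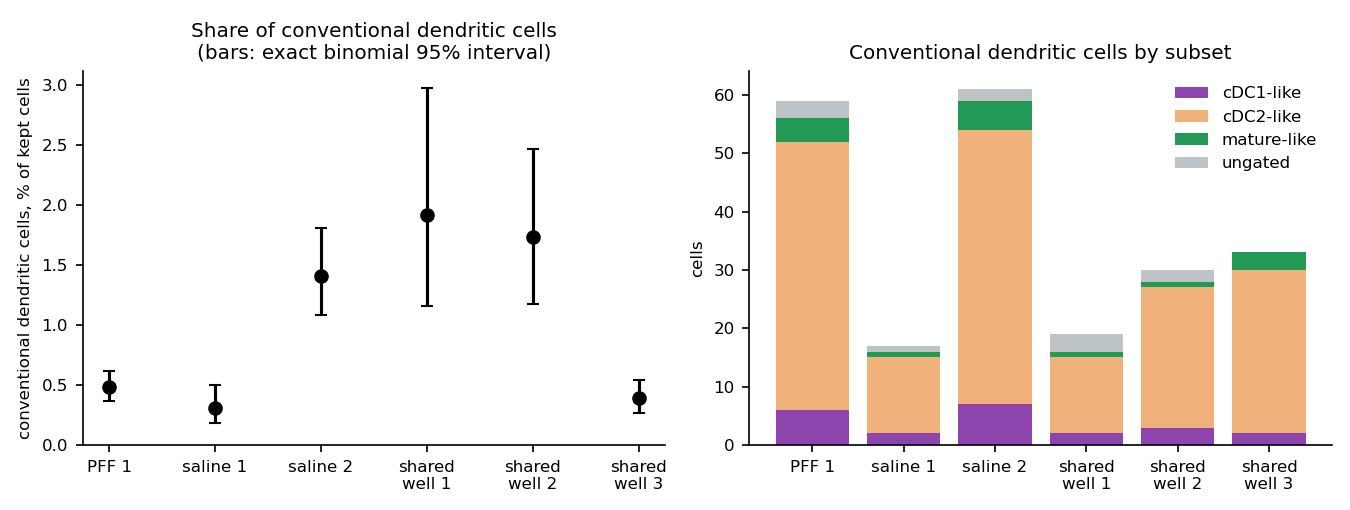
Left, share of kept cells that are conventional dendritic cells in each well (percent), with exact binomial 95% intervals. Right, number of cells by subset in each well; the PFF 1 share of 0.481% lies between saline 1 at 0.311% and saline 2 at 1.41%, and cDC2-like cells are the bulk of every well.

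cDC1-like and cDC2-like cells of the same libraries were compared to see how far the subsets differ beyond the genes that gated them. Of 6246 genes tested, 865 passed (13.8%; called where edgeR, with the library as a block, gave a Benjamini-Hochberg adjusted p below 0.05), 307 of them higher (4.92%) and 558 lower (8.93%) in cDC1-like cells. PFF 1, saline 2 and the shared wells entered the fit, because saline 1 had only 2 cDC1-like cells. The shared wells may be the same material as saline 2, since the sources do not say which sample they belong to. Genes of the rule and the gates were left out of the test. CPM given for a whole subset pool all libraries, saline 1 included, while fold changes and p-values come from the fit.

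The cDC1 factor Irf8 was high in the cDC1-like cells of every library. It lies on chromosome 8 at 120736358 to 120756694 (GRCm38, plus strand) and had 1715 CPM in cDC1-like cells of PFF 1, 2271 in saline 1, 2100.2 in saline 2 and 1972 in the shared wells. In cDC2-like cells it had 33.9, 76.1, 14.3 and 15.7 CPM in the same order of libraries. The groups did not overlap, and the log2 fold change was 6.72 ± 0.39 (SE, adjusted p = 6.53e-16). Batf3, the partner factor, differed far less, with 199 CPM in cDC1-like and 112 CPM in cDC2-like cells (log2 1.11 ± 0.34, adjusted p = 0.0229), and in saline 1, outside the fit, 138 and 145 CPM. Of the 12 transcription factors on the list, 2 were higher and 4 lower. The lower ones were Zeb2, Irf4, Klf4 and Runx3, factors tied to cDC2 or to monocyte-related programs. Zeb2 had no UMI in the 22 cDC1-like cells and 220 CPM in cDC2-like cells, at least 30.6-fold lower when the floor is 3 counts over the group. Irf4 was read in 1 cDC1-like and 103 cDC2-like cells.

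Sensors of nucleic acids and of microbes were divided between the subsets. Tlr3, the endosomal receptor for double-stranded RNA, had 299 CPM in cDC1-like cells of PFF 1, 895 in saline 1, 406 in saline 2 and 314 in the shared wells. In cDC2-like cells its highest level was 9.66 CPM, in the shared wells, and the log2 fold change was 5.50 ± 0.40 (adjusted p = 2.33e-13). Tlr11 and Tlr12, which sense profilin of parasites in the mouse, were higher as well: Tlr12 was read in 20 of 22 cDC1-like cells (211 CPM) and in 1 of 171 cDC2-like cells. Clec4n, which encodes the fungal receptor Dectin-2, and Nlrp3, an inflammasome sensor, ran the other way. Clec4n had 0 UMIs in cDC1-like cells and 494 in 113 cDC2-like cells, and Nlrp3 had 1 UMI against 251. Of 6 pattern recognition genes tested from 13 in the files, 3 were higher and 2 lower.

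Genes of uptake and breakdown also differed. Cst3, which encodes the protease inhibitor cystatin C, had 21202 CPM in cDC1-like cells of PFF 1, 9223 in saline 1, 17321 in saline 2 and 11403 in the shared wells. In cDC2-like cells it ranged between 2230 CPM in saline 1 and 3960 CPM in saline 2. The log2 fold change was 2.50 ± 0.31 (adjusted p = 1.36e-07). The lysosomal enzyme genes Ppt1 (2381 CPM in cDC1-like, 79.7 CPM in cDC2-like cells) and Naaa (591 and 57.0 CPM) and the scavenger receptor Cd36 (261 and 12.1 CPM) were higher too. The lysosomal genes Lgmn, Lamp1 and Ctsz were lower, as was the class II processing protease Ctss with 292 CPM in cDC1-like and 862 CPM in cDC2-like cells (log2 -1.37 ± 0.32, adjusted p = 0.00193).

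Class I presentation genes leaned to cDC1-like cells, and class II genes had no common direction. Psmb9, an immunoproteasome subunit, had 553 CPM in cDC1-like and 216 CPM in cDC2-like cells (log2 1.59 ± 0.32, adjusted p = 0.000339). Tap1, a peptide transporter subunit, and Pdia3, a chaperone of the loading complex, were called higher as well, although Tap1 in PFF 1 had 39.0 CPM in cDC1-like and 54.5 CPM in cDC2-like cells. In all, 3 of 12 class I genes were called higher and 0 lower, with a median log2 fold change of 0.67 against -0.11 over all genes tested. Of 10 class II genes, H2-DMb1 was higher and Ctss and H2-DMb2 were lower. H2-Aa did not pass, with 7179 CPM in cDC1-like and 7022 CPM in cDC2-like cells (log2 0.21 ± 0.29, adjusted p = 0.736).

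Other genes nearly limited to cDC1-like cells were Cadm1, which encodes an adhesion molecule of this lineage (246 UMIs, against 17 in cDC2-like cells), Rab7b, a small GTPase of endosomes (97 against 1), and Plpp1, a lipid phosphatase (116 against 4). Cyp26b1, an enzyme that degrades retinoic acid, was read in 12 of 22 cDC1-like cells and in none of 171 cDC2-like cells, at least 213-fold higher. It was uneven between libraries, with 39.0 CPM in PFF 1, 0 in saline 1, 190 in saline 2 and 267 in the shared wells. Cd8a, a known surface marker of lymphoid cDC1, had 81.4 CPM in cDC1-like and 6.58 CPM in cDC2-like cells (log2 3.75 ± 0.63, adjusted p = 2.59e-05). It also stood on the T cell list, of which 1 of 2 tested genes was called.

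Genes read in most cDC2-like cells had no UMI in the 22 cDC1-like cells. They included Ccr1, an inflammatory chemokine receptor (278 CPM, 159 of 171 cDC2-like cells, at least 38.7-fold lower in cDC1-like cells), and Tmcc3 (387 CPM, 148 cells, at least 53.9-fold lower). Cd101, a surface inhibitor of T cell activation, had 266 CPM in cDC2-like cells, and the adhesion molecule Pecam1 had 257 CPM. Il1b, which encodes the cytokine IL-1β, had 59.8 CPM in cDC1-like and 501 CPM in cDC2-like cells (log2 -3.27 ± 0.47, adjusted p = 2.21e-06), and 84.0% of the cDC1-like UMIs were in 1 cell. Tgfb1, Tgfbr1 and Cd274 of the tolerance list were lower and 0 of its 7 tested genes were higher. Of the interferon list 3 of 7 tested genes were lower: Isg15, Usp18 and Gbp2.

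The integrin Itgae did not separate the subsets, with 689 CPM in cDC1-like and 570 CPM in cDC2-like cells (log2 0.33 ± 0.31, adjusted p = 0.575), although it stood on the cDC1 list. Of that list's 11 tested genes 8 were called higher, and of the 8 tested on the cDC2 list all 8 were called lower. These lists follow the same axis as the gates, so the counts describe it and are not separate evidence. Among lists of other cell types, Epcam of the epithelium, Plac8 of monocytes, Adgre1 of macrophages and Pecam1 of stroma were lower in cDC1-like cells. Epcam had 62.2 CPM in cDC1-like and 378 CPM in cDC2-like cells and was read in 88.3% of cDC2-like cells, against 47.8% of T cells at 160 CPM.

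**Figure D2:**
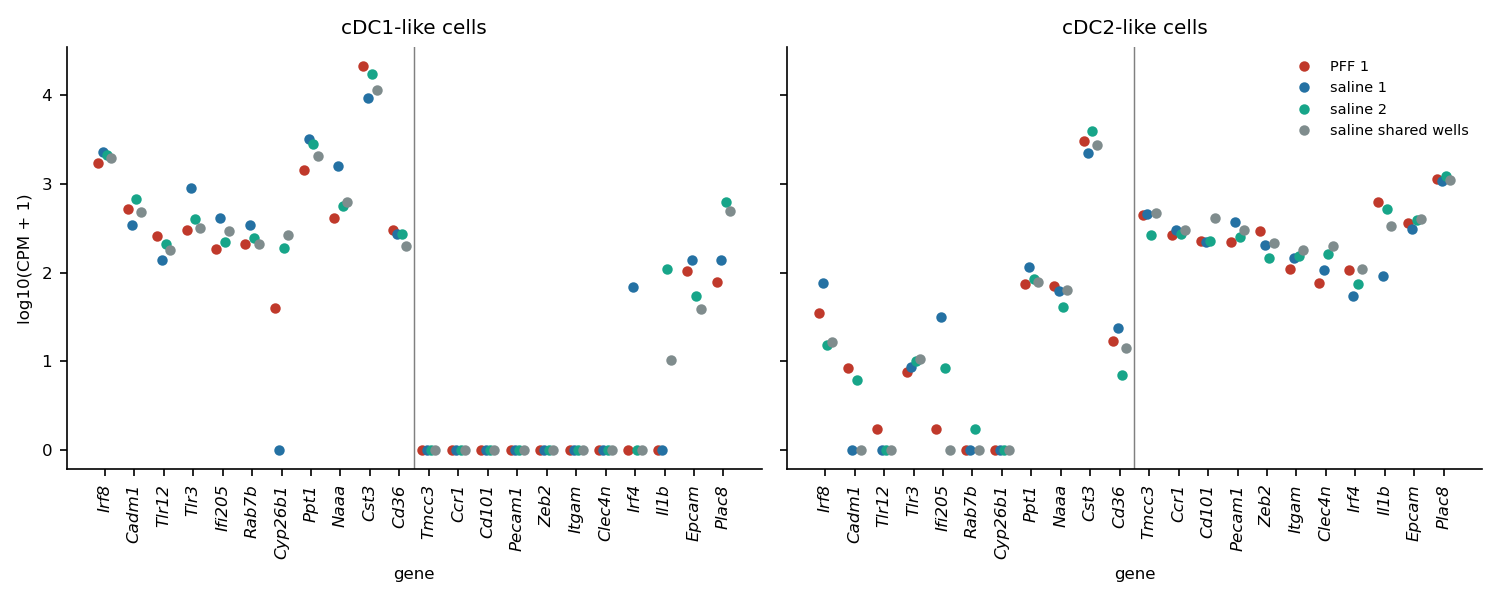
Level of 22 genes, log10(CPM + 1), in cDC1-like cells (left) and cDC2-like cells (right), 1 point for each library and the shared saline wells. Irf8 lies between 1715 and 2271 CPM in cDC1-like cells and at or under 76.1 CPM in cDC2-like cells; Zeb2, Itgam and Ccr1 are at 0 in every cDC1-like group.

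Within cDC2-like cells the integrins gave the known intestinal pattern. Itgae was read in 164 of 171 cells (95.9%) and Itgam in 123 (71.9%), with both in 118 (69.0%). T cells, which carry CD103 themselves, had Itgae in 26053 of 26864 cells and Itgam in 8.61%. Cells with Itgae and without Itgam were 39.1% of cDC2-like cells in PFF 1 (exact 95% interval 25.1 to 54.6), 30.8% in saline 1 (9.09 to 61.4), 19.1% in saline 2 (9.15 to 33.3) and 23.1% in the shared wells (13.5 to 35.2). PFF 1 was highest, with an interval that overlaps those of every saline group, and the intervals cover counting error only. Aldh1a2, the enzyme that makes retinoic acid and a known tolerance gene of gut dendritic cells, was read in 47.4% of cDC2-like cells, against 0.0335% of T cells.

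Some cDC2-like cells were marked by Il22ra2. This gene, on chromosome 10 at 19621998 to 19634681 (GRCm38, plus strand), encodes IL-22 binding protein, a secreted inhibitor of the epithelial cytokine IL-22. Its UMIs were nearly all-or-none: 22 of 171 cells had 10 or more, 5 had 2 to 9, 2 had exactly 1 and the rest had none. A UMI of the gene was read in 15 of 26864 T cells (0.0558%) and in 5 of the other 48 cDC (10.4%), among them 2 of the 11 ungated cells (440 CPM). Cells with 2 or more were set apart as Il22ra2-positive. This split was chosen after the values were seen, so what follows describes it, with no test.

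The Il22ra2-positive cells were 14 of 46 cDC2-like cells in PFF 1 (30.4%, exact 95% interval 17.7 to 45.8). Saline 1 had 2 of 13 (15.4%, 1.92 to 45.4), saline 2 had 7 of 47 (14.9%, 6.20 to 28.3) and the shared wells had 4 of 65 (6.15%, 1.70 to 15.01). As a share of cDC2-like cells PFF 1 was highest. Its interval overlaps those of saline 1 and saline 2 but not that of the pooled shared wells. Taken singly, every shared well had an interval that overlaps that of PFF 1, with the lowest upper limit at 18.3 in well 3. The intervals cover counting error only. Of kept cells the positive cells were 0.114% in PFF 1, 0.0366% in saline 1, 0.162% in saline 2 and 0.0356% in the shared wells. By that share saline 2 was above PFF 1. In PFF 1 these cells were also deeper than the rest, with a median of 39347.5 against 25573 UMIs. After thinning to 2000 UMIs a UMI was left in 21.7% of cDC2-like cells of PFF 1, 15.4% of saline 1, 10.6% of saline 2 and 4.62% of the shared wells. The summed Il22ra2 level over all cDC was 750 CPM in PFF 1, 1545 in saline 1, 290 in saline 2 and 250.0 in the shared wells (log2 of PFF over saline -0.16 ± 0.50, edgeR adjusted p = 1.00). In saline 1 a single cell held 210 of the 243 UMIs, and PFF 1 lay above saline 2 and the shared wells.

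Many other genes ran with Il22ra2. S100a6, a calcium-binding protein, had 2556 CPM in the positive cells of PFF 1, 2576 in saline 1, 2955 in saline 2 and 4366 in the shared wells. In the other cDC2-like cells its highest level was 256 CPM, in PFF 1. The gut homing receptor Ccr9 had 814 CPM in positive and 65.9 CPM in other cells, the growth factor receptor Csf1r had 226 and 24.8 CPM, and the inhibitory receptor Btla had 355 and 14.2 CPM. Tgfbi, an extracellular matrix protein, and Il1rn, the antagonist of IL-1, were close to 0 outside the positive cells (0.709 and 0.354 CPM), against 191 and 149 CPM within. Lyz1, a lysozyme gene with a near copy in the genome that can share its reads, had 549 CPM in positive and 3.897 CPM in other cells, but only 72.3 CPM in the positive cells of saline 2. Few cells carried it: in PFF 1 the highest had 231, 110 and 8 of its 377 UMIs. The chemokine receptor Ccr6 was read in 63.0% of positive and 5.56% of other cells, though in none of either in the shared wells. Cx3cr1, the fractalkine receptor, was read in 59.3% and 3.47%.

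Genes typical of the remaining cDC2-like cells were low in the Il22ra2-positive ones. Runx1, a transcription factor of blood cell development, had 48.4 CPM in positive and 2029 CPM in other cells. Apol7c had 0 UMIs in positive cells and 752 CPM in the others, read in 84.7% of them. The guanine nucleotide exchange factor Vav3 had 29.0 and 610 CPM, Cd101 had 20.6 and 338 CPM, Itgam had 20.6 and 180 CPM, and the activation marker Cd83 had 29.0 and 258 CPM. Cd209a, a gate gene, was at 23.0 CPM in positive and 590 CPM in other cells, and Clec10a had 0 UMIs in positive cells. The summed gate UMIs of positive cells were thus mostly of Sirpa (303 and 133 CPM). Itgae was read in all 27 positive cells and in 95.1% of the others, and Zbtb46 in 92.6% and 84.0%. Flt3, which chose the cells, was at 561 CPM in positive and 311 CPM in other cells.

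**Figure D3:**
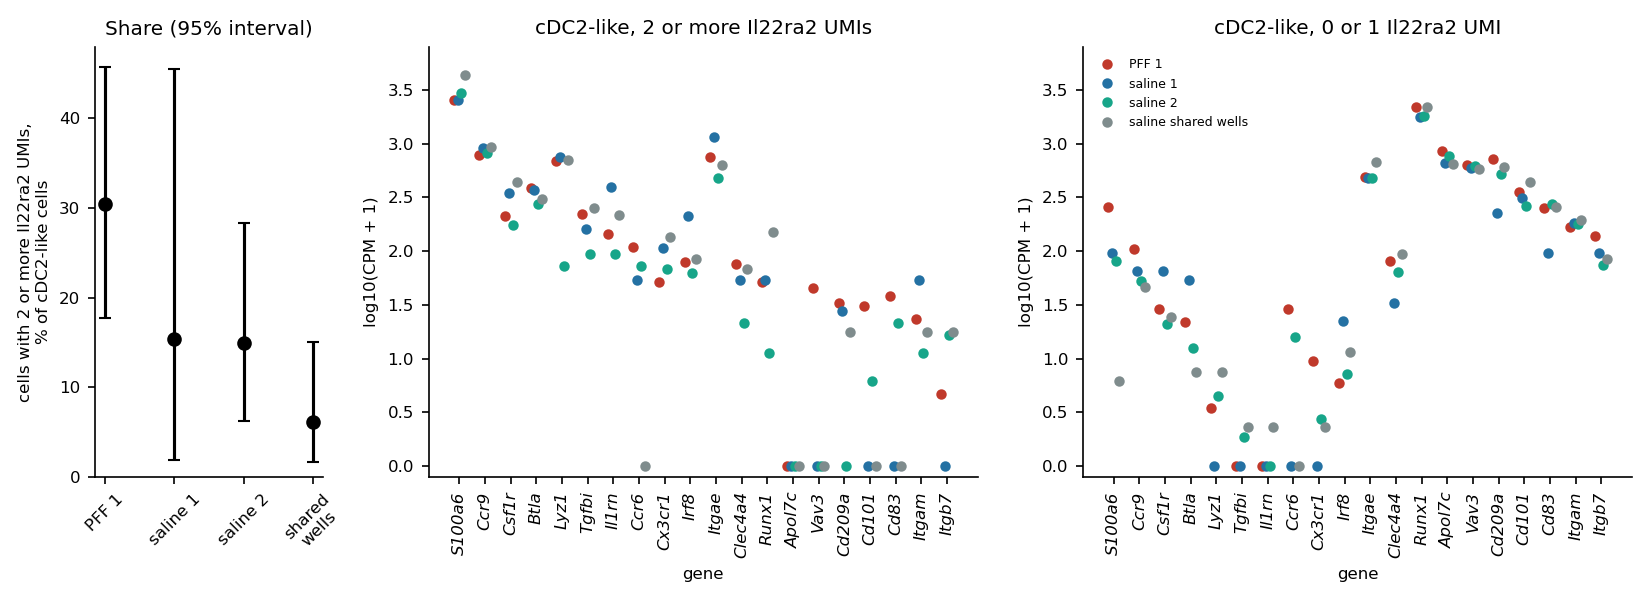
Left, share of cDC2-like cells with 2 or more Il22ra2 UMIs in each library (percent, exact binomial 95% interval). Middle and right, level of 20 genes, log10(CPM + 1), in cDC2-like cells with 2 or more Il22ra2 UMIs and in those with 0 or 1; the share is 30.4% in PFF 1 and between 6.15% and 15.4% in the saline groups, and S100a6, Ccr9 and Btla are high in the positive cells of every library while Apol7c is at 0.

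The 15 mature-like cells were few and mixed, and what brought them in differed between libraries. Ccl22, a chemokine for regulatory T cells, was read in 14 of them, Ccr7 in 6 and Fscn1, an actin-bundling protein, in 5. In PFF 1 all 4 cells entered by Ccl22, with 5, 4, 5 and 22 UMIs, and none had a UMI of Ccr7 or Fscn1. The only mature-like cell of saline 1 had 3 Ccr7 and 5 Fscn1 UMIs. In saline 2 Ccr7 was read in 3 of 5 cells with 3, 10 and 111 UMIs, and in the shared wells in 2 of 5 with 3 and 1. Cells carrying Ccr7 were thus read in saline only, but 0 of 59 cDC in PFF 1 allows a share of up to 5.08% with a UMI, and the saline shares were 1 of 17, 3 of 61 and 2 of 82. No test was made on these counts. Of the 15 cells, 3 had more UMIs of the cDC1 pair than of the cDC2 trio, 6 had the reverse and 6 had equal sums.

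Mature-like cells were compared with the sum of cDC1-like and cDC2-like cells in saline 2 and the shared wells, which each had 5 of them. The sources do not say which sample the shared wells belong to, so they may be the same material as saline 2. The p-values of this contrast may then hold no spread between samples. Of 6399 genes tested 98 passed (1.53%), 69 higher (1.08%) and 29 lower (0.453%). With the gates lowered by 1 UMI 20 genes passed, and with DESeq2 42. Some calls rest on 1 cell of saline 2 with 29334 UMIs, as given beside them. CPM given for all mature-like or all other cDC pool every library, while fold changes and p-values come from saline 2 and the shared wells alone.

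Il4i1, a secreted amino acid oxidase that restrains T cells, led the known maturation genes. It had 46.4 CPM in mature-like cells of PFF 1, 1779 in saline 1, 1829 in saline 2 and 217 in the shared wells. In other cDC its highest level was 7.72 CPM, in saline 2, and the log2 fold change was 7.95 ± 0.55 (edgeR adjusted p = 1.94e-08). A single cell held 67.8% of the UMIs. Relb, an NF-κB subunit of dendritic cell maturation, had 454 CPM in mature-like and 75.5 CPM in other cDC (log2 3.21 ± 0.46, adjusted p = 0.00041). Ccl17, a chemokine that attracts T cells, had 199 and 17.5 CPM (log2 3.91 ± 0.56, adjusted p = 0.00041). The saline 2 cell with 29334 UMIs had 25 Ccl17 UMIs, the next highest mature-like cell had 10, and the mature-like cell of saline 1 had 0. The maturation marker Cd83 had 803 and 226 CPM, and Pdcd1lg2, which encodes the PD-1 ligand PD-L2, had 174 and 24.3 CPM, with 79.1% of its mature-like UMIs in 1 cell.

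Of the 13 tested genes on the maturation list 8 were higher and 0 lower, with a median log2 fold change of 1.62 against -0.16 over all genes tested. This list follows the same axis as the gate on Ccr7, Fscn1 and Ccl22, so the counts describe it and are not separate evidence. The costimulatory genes did not pass: Cd40 had 60.9 CPM in mature-like and 33.2 CPM in other cDC, Cd80 had 187 and 78.2 CPM, and Cd86 had 572 and 641 CPM (adjusted p = 0.70, 0.656 and 0.506). Aldh1a2 had 158 and 36.9 CPM without passing (log2 2.03 ± 0.69, adjusted p = 0.226). Of antigen presentation genes, H2-K1 (1392 and 663 CPM), Cd74 (24361 and 17899 CPM, log2 0.59 ± 0.15, adjusted p = 0.0447) and Cst3 (12457 and 4611 CPM) were called higher. Cst3 lay in few cells: 2 saline 2 cells held 1187 and 858 of its 3070 mature-like UMIs, and the first of them also had 19 Xcr1 and 44 Clec9a UMIs. Outside the fit Cst3 was at 3820 CPM in mature-like and 4001 CPM in other cDC of PFF 1, and at 1038 and 2926 CPM in saline 1, where Cd74 was at 7858 and 15606 CPM. Of the 10 class II genes 4 were above 0, with a median log2 fold change of -0.36. Lower genes included Itgam, at 0 UMIs in the mature-like cells of both fitted groups and 4 in PFF 1, and the tissue cDC2 genes Ctnnd2 (101 and 401 CPM) and Plet1 (114 and 432 CPM).

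**Figure D4:**
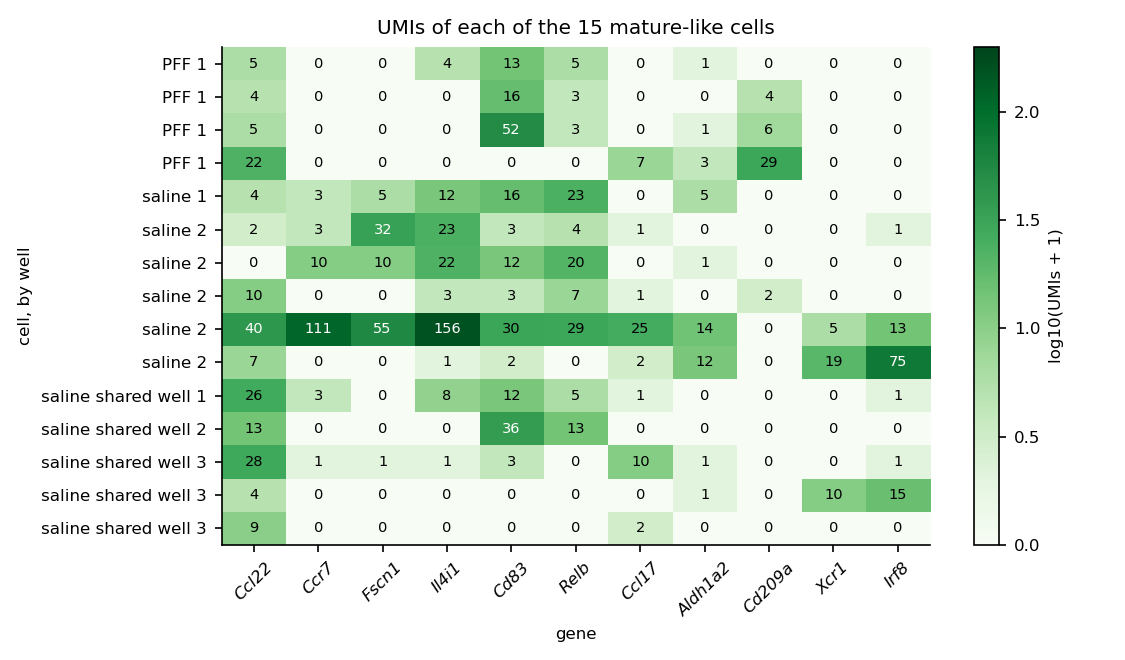
UMIs of 11 genes in each of the 15 mature-like cells, grouped by well, with PFF 1 at the top; the colour is log10(UMIs + 1). The 4 PFF 1 cells have 4 to 22 Ccl22 UMIs and none of Ccr7 or Fscn1, and 1 saline 2 cell holds 111 Ccr7 UMIs.

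The comparison of PFF with saline, the question of the series, gave few calls in all cDC. Of 9662 genes tested 17 passed in edgeR (0.176%), 5 higher (0.0517%) and 12 lower (0.124%) in PFF. There is a single PFF library, so the residual rests on how saline 1 and saline 2 differ, at 1 degree of freedom. P-values hold no spread between PFF libraries. edgeR also shares its estimate of spread across the genes tested. A small p-value therefore does not mean that a gene differs more between PFF and saline than between saline 1 and saline 2. Cxcl10 in cDC2-like cells passed with a log2 difference of 3.56 between saline 2 and saline 1. Batch and treatment can be compared within batch 1 only as values, PFF 1 against saline 1. The sources do not say which sample the shared wells belong to, so they may be the same material as saline 1 or saline 2. Adding them to the saline side left 4 genes: Dlc1, Nek10, 5730522E02Rik and Xcr1. DESeq2 called 0 genes on the same sums, with 47 at an unadjusted p under 0.05.

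Genes higher in PFF 1 lay in few cells. Dlc1, which encodes a RhoGAP tumour suppressor (chromosome 8, 36567751 to 36953143, GRCm38, minus strand), had 51 UMIs in PFF 1 and 0 in saline 1, saline 2 and the shared wells. That is at least 20.2-fold higher (adjusted p = 0.00116), but the UMIs came from 4 cells and 58.8% of them from 1. Nek10, a kinase of the NIMA family, had 99 UMIs in PFF 1, 2 in saline 1, 15 in saline 2 and 9 in the shared wells (log2 2.69 ± 0.61, adjusted p = 0.0104), in 6 PFF cells. Hs3st2, a heparan sulfate sulfotransferase, had 59 UMIs in PFF 1, 0 in saline 1, 6 in saline 2 and 29 in the shared wells (log2 3.51 ± 0.88, adjusted p = 0.038). By CPM the shared wells were close to PFF 1 for this gene, at 28.3 against 38.3.

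Lyz1 had 377 UMIs in PFF 1, 28 in saline 1, 25 in saline 2 and 49 in the shared wells. As CPM this was 245 in PFF 1, 178 in saline 1, 14.9 in saline 2 and 47.9 in the shared wells. Within batch 1 the difference was thus small (log2 0.58), and against saline 2 it was large (log2 3.81), for a fitted log2 fold change of 2.00 ± 0.49 (adjusted p = 0.0274). The unnamed transcript 2900052N01Rik completed the 5 genes, with 118 UMIs in PFF 1, 3 in saline 1, 23 in saline 2 and 3 in the shared wells.

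Most of these UMIs lay in the Il22ra2-positive cDC2-like cells. In PFF 1 those 14 cells held 98.3% of the cDC2-like UMIs of Hs3st2, 100% of Nek10, 99.5% of Lyz1 and 75.4% of 2900052N01Rik, but 11.8% of Dlc1. When the Il22ra2-positive cells were left out of all libraries, an alternative chosen after the data were seen, Hs3st2, Nek10 and Lyz1 had too few counts to be tested. 2900052N01Rik no longer passed (adjusted p = 0.836), and Dlc1 still did. In that fit 24 genes passed, 13 of them among the 17. S100a4, Hspa1a and Clec10a, which had not passed with all cells, then did. S100a4, a calcium-binding protein, had 436 CPM in the other cDC2-like cells of PFF 1, 32.0 in saline 1, 86.9 in saline 2 and 0 in the shared wells. Hspa1a, a heat shock gene that also responds to tissue digestion, had 194 CPM in PFF 1, 10.7 in saline 1, 55.3 in saline 2 and 11.7 in the shared wells.

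Genes lower in PFF 1 came mostly from single cells of saline 2. Ccr7 had 0 UMIs in PFF 1, 3 in saline 1, 124 in saline 2 and 4 in the shared wells, and 1 mature-like cell of saline 2 held 87.4% of the saline UMIs. The same cell held 51.9% of Fscn1 (2 UMIs in PFF 1, 5 in saline 1, 101 in saline 2 and 1 in the shared wells) and 68.1% of Il4i1 (12, 12, 217 and 11 UMIs in that order). Cxcl10, an interferon-induced chemokine, had 0 UMIs in PFF 1, 1 in saline 1, 133 in saline 2 and 0 in the shared wells, with 97.8% in 1 cell. As CPM, Il4i1 was at 7.79 in PFF 1, 76.3 in saline 1, 129 in saline 2 and 10.7 in the shared wells, and Fscn1 at 1.30, 31.8, 60.2 and 0.977. PFF 1 was thus below saline 1 and saline 2 and near the shared wells for both genes.

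Olfm4, an intestinal stem cell gene, Slc12a2, an ion transporter of crypt cells, and Prap1, an enterocyte gene, shared 1 cDC2-like cell of saline 2. That cell, the deepest of all at 78938 UMIs, held 99.1%, 94.7% and 36.8% of their saline UMIs. It also had 49 UMIs of Epcam, 20 of Krt8 and 10 of Krt18, beside 76 of Ptprc and 17 of Zbtb46, and was not removed by its doublet score. Prap1 had 5 UMIs in PFF 1, 0 in saline 1, 87 in saline 2 and 182 in the shared wells. The summed epithelial list stood at 384 CPM in PFF 1, 299 in saline 1, where Epcam alone of its 9 genes was read, 497 in saline 2 and 1195 in the shared wells. The part of epithelial RNA in these calls was not tested. Myo15, a myosin gene, was the same kind of case, with 97.1% of its saline UMIs in 1 cell. P3h2 and Gm34455 were less concentrated. P3h2 had 58 saline UMIs in 7 cells, 53.4% of them in 1 cDC1-like cell of saline 2. Gm34455 had 104 in 16 cells, 57.7% of them in 1 cDC2-like cell of saline 2.

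Among the lower genes, 5730522E02Rik and Xcr1 had the smallest parts of their saline UMIs in 1 cell, at 23.1% and 21.5%. The unnamed transcript 5730522E02Rik had 1 UMI in PFF 1, 12 in saline 1, 53 in saline 2 and 38 in the shared wells (log2 -5.89 ± 1.05, adjusted p = 3.81e-05), with its saline UMIs in 13 cells. Xcr1 was the other. This receptor of cDC1, which finds XCL1-secreting lymphocytes (chromosome 9, 123852315 to 123862029, GRCm38, minus strand), had 13.6 CPM in PFF 1, 89.0 in saline 1, 85.9 in saline 2 and 83.0 in the shared wells. PFF 1 lay below every saline value (log2 -2.67 ± 0.57, adjusted p = 0.00316), and its UMIs in saline 1 and saline 2 lay in 11 cells. The cDC1-like cells of PFF 1 gave a smaller part of the cDC UMIs: 5.00% in PFF 1, 9.24% in saline 1, 13.2% in saline 2 and 10.3% in the shared wells. Counted over cDC1-like cells alone, Xcr1 stood at 247 CPM in PFF 1, with a Poisson interval (exact, 95%) of 149 to 385. The saline values were 964 CPM for saline 1 (527 to 1617), 542 CPM for saline 2 (449 to 648) and 705 CPM for the shared wells (554 to 885). The PFF value stayed below the saline ones, with intervals that cover counting error only. It rests on 6 cDC1-like cells in PFF 1 and 2 in saline 1. Xcr1 itself helped to choose these cells, so the values describe the gated cells and are not separate support for the call.

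Clec9a, the other gate gene of the cDC1 pair and a receptor for dead cells, did not follow: within cDC1-like cells it had 792 CPM in PFF 1, 344 in saline 1, 569 in saline 2 and 648 in the shared wells. Over all cDC, 12 of the 14 cDC1 genes had a log2 fold change below 0 in PFF, with a median of -1.22 against -0.01 over all genes, but Xcr1 alone passed. Irf8 had 116 CPM in PFF 1, 273 in saline 1, 343 in saline 2 and 231 in the shared wells (log2 -1.44 ± 0.48, adjusted p = 0.507), and Ppt1 had 140 CPM against 394, 493 and 299 (adjusted p = 0.235). The smaller part of cDC1-like UMIs in PFF 1 moves with these values, and its part in them was not tested. Too few cDC1-like and mature-like cells were present in every library for a test of PFF within those subsets.

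Genes of function showed no call beyond those named. Of 10 class II genes 0 passed, with a median log2 fold change of 0.00. H2-Aa had 6906 CPM in PFF 1, 5270 in saline 1, 7598 in saline 2 and 6763 in the shared wells (log2 0.10 ± 0.60, adjusted p = 1.00). Of 12 class I genes, 10 tested tolerance genes, 12 costimulation and cytokine genes, 13 interferon genes, 8 pattern recognition genes and 10 uptake genes 0 passed in each. The chemokine list had Cxcl10 as its only call among 13 genes. All 6 tested cell cycle genes were below 0 with a median of -0.95, and none passed.

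In cDC2-like cells alone 6 of 9356 genes passed (0.0641%), Dlc1 higher (0.0107%) and Cxcl10, Olfm4, Slc12a2, Myo15 and Gm34455 lower (0.0534%). Of these, Dlc1 passed with the shared wells added. Klf2, a transcription factor of quiescence, had 29 UMIs in 7 PFF 1 cells, 69.0% of them in 1 cell, and 0 in every saline group. It did not pass (edgeR adjusted p = 0.0816). Il1b had 568 CPM in PFF 1 over all cDC, 114 in saline 1, 457 in saline 2 and 294 in the shared wells, without a call (log2 0.85 ± 0.45, adjusted p = 1.00).

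**Figure D5:**
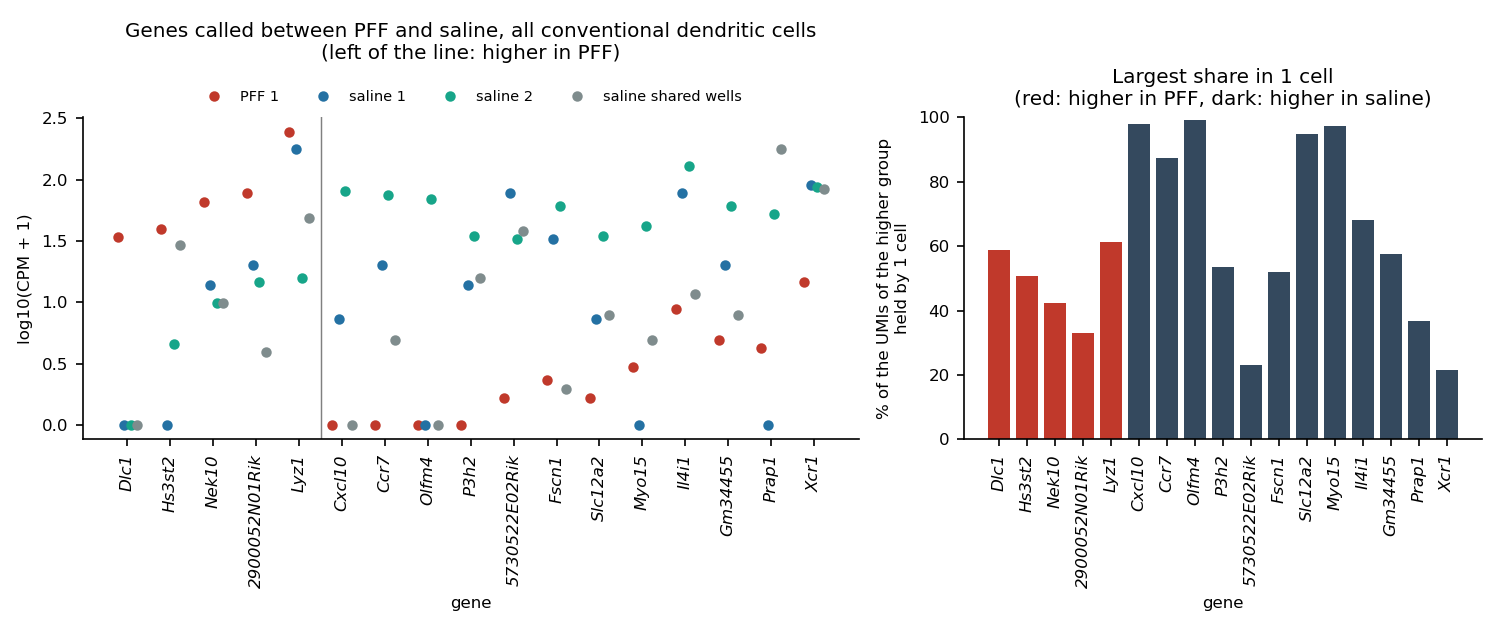
Left, level of the 17 genes called between PFF and saline over all conventional dendritic cells, log10(CPM + 1), for PFF 1, saline 1, saline 2 and the shared saline wells. Right, percent of each gene's UMIs in its higher group that lie in a single cell, from 21.5% for Xcr1 to 99.1% for Olfm4.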

How the data were processed

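The authors deposited unnormalised UMI counts of 32285 genes in each barcode, made with Cell Ranger 7.0.0, per the file headers, on mm10, per the submitters' processing notes. Cells needed 500 UMIs, 200 genes and no more than 15% mitochondrial UMIs. Member counts were added up within each library, and edgeR 4.0.16 (R 4.3.3) did the tests (TMM, filterByExpr, quasi-likelihood F test, 2-sided, Benjamini-Hochberg over all genes tested, called under 0.05). The main fits were also run on data simulated from the means of these counts. CPM in the text are without TMM factors and fold changes with them, and values for single libraries used a prior count of 2. Subset fits took libraries with at least 5 cells of both subsets, with library as a block.

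Nothing in the labels says that libraries came from separate animals. Scrublet's automatic threshold marked under 0.5% of cells in every well but 1 (0.577%), so doublets were kept, and removing the highest scores (2 members) was an alternative. Other alternatives were RLE normalization, DESeq2 1.42.0, other filters, limits and gates. Named genes were list members, called genes, the 12 highest and 12 lowest by log2 fold change in each subset contrast, and, for PFF, where fewer than 12 a direction were called, those next by p with PFF beyond both saline libraries. Clec7a and Mx1 were not analysed here. The members and lists were chosen with earlier results of these data known. Coordinates are from GENCODE M21.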

Additional observations from a re-analysis of the deposited data

How the results depend on the processing

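No paired analysis was possible because PFF 1 has no second PFF library to pair, and number 1, which is also batch 1, is the only one that both groups share. For PFF against saline over all cDC, 17 genes were called. The count was 0 with DESeq2 (47 at an unadjusted p under 0.05, against 217 in edgeR), 4 with the shared wells as a further library, 1 with each well as a library and 7 with H2-Ab1 at 20 or more. It was 0 (6 at an unadjusted p under 0.05 among 86 genes) without members that held 2 or more UMIs of another cell type's list, which left 4 members in all, and 1 when genes read in most members were dropped from those lists, an alternative added after seeing the data; there Ptafr turned to -0.42. RLE, no low-count filter, other cell filters, Scrublet removal, Flt3 at 2 or more and removal of Il22ra2-positive cells gave 13 to 24 calls. Without either saline library no error term remains, so only values could be given. In cDC2-like cells 6 calls became 0 with DESeq2 (35 at an unadjusted p under 0.05, against 194 in edgeR), 1 with the shared wells and 15 without Il22ra2-positive cells.

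For cDC1-like against cDC2-like cells 865 calls became 535 with DESeq2 and 459 without the shared wells, which is also the result with each well as a block. Leaving out 1 block at a time gave 459 to 617, and 516 without saline 2. With no replicate block the count was 1067 for this contrast and 172 for the mature-like one, against 98. For mature-like cells the other counts were 42 with DESeq2, 153 with no low-count filter, 20 with gates lowered by 1 and 52 with every library. No value came from fits of this contrast without the shared wells, with each well as a block or with a block left out, since 1 block is left, nor from leaving out members with other cell types' UMIs in either subset contrast.

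Shares of cDC kept their direction against the saline mean (PFF minus the mean between -0.47 and -0.09 percentage points). The saline libraries lay on opposite sides of PFF 1. PFF 1 was below saline 2 but above saline 1, at 0.481% against 0.311%, and after thinning at 0.257% against 0.164%. Only with files as deposited was it below saline 1 too (0.481% against 0.593%). Subset shares moved with depth and gates, in percentage points of cDC. The cDC1-like difference was -1.45, and 1.86 after thinning, 1.49 with gates lowered and 0.729 with files as deposited. For cDC2-like cells it was 1.21, and 5.39, -0.54 and -0.59 in those settings and 9.15 with gates raised. For mature-like cells -0.26 became -5.58 after thinning and -4.39 with gates lowered, and for ungated cells 0.504 became -1.67, 3.45 and, with gates raised, -7.44. The cause of these changes was not tested. Depth limits saline 1 most, where 157304 UMIs in 17 cells leave many genes at 0.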

Other observations

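The complement limit of the rule set aside cells that otherwise looked like conventional dendritic cells. With C1q sums of 5 to 9 there were 4 such cells, 75.0% of them with Zbtb46 (240 CPM), and with sums of 10 or more there were 5, 80.0% with Zbtb46 (241 CPM). Members with sums of 1 to 4 were 9, and 88.9% of them carried Zbtb46 (217 CPM). In C1q macrophages as a whole 3.11% of cells carried the gene.

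Clec9a, which gates cDC1-like cells here, was not limited to them. It was read in 79.4% of 296 plasmacytoid dendritic cells at 274 CPM, against 622 CPM in cDC1-like cells, in 7.11% of C1q macrophages and in 0.119% of T cells. Xcr1, its partner in the gate, was read in 0.338% of plasmacytoid dendritic cells and in none of 225 C1q macrophages, which allows a share of up to 1.33% with a UMI.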
